A study of Mus musculus with 18 samples.

Results

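Nuclear factor kappaB (NF-kappaB) is a family of transcription factors built from 5 subunit genes, which were described here together with 4 genes whose products restrain or modify the pathway and with the cytokine gene Tnf. The 10 members were listed by name as genes of the pathway, with no threshold on a measured value: Rela, Relb, Rel, Nfkb1, Nfkb2, Nfkbia, Bcl3, Nfkbiz, Tnfaip3 and Tnf, of 29214 genes listed in the bulk table. They were chosen with earlier results of these data known, so shares of all genes set beside their counts are descriptions. All 10 were also listed in the droplet and section tables.

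In resting cells, NF-kappaB dimers are held in the cytoplasm by inhibitors of the IkappaB family. Signals from tumour necrosis factor, interleukin-1 and Toll-like receptors activate a kinase complex that marks the inhibitor for destruction, and the released dimers enter the nucleus and switch on genes of inflammation and survival. Several of the genes switched on encode inhibitors of the pathway itself, so their transcripts are commonly read as signs of recent activity. In the bladder the pathway is known from the response of urothelium and resident immune cells to infection and injury.

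The series measured C57BL/6 mouse bladders with no treatment or genetic change given in the labels. Bulk RNA was sequenced from 3 libraries of intact whole bladder and 3 of dissociated bladder, each labelled as 3 females of 12 months. Of 5 droplet libraries of whole-bladder cells, 1 was made from 3 males aged 22 months and 1 from 3 males aged 3 months. The other 3 each pooled both sexes, 2 females with 2 males: 2 libraries at 12 months and 1 at 24 months. The nuclei library was also of mixed sex, with 2 females and 2 males at 12 months. At 14 months, a library of the detrusor (the muscle layer of the bladder wall) used 3 females, and a detrusor-enriched library of whole bladder used 2 mice of each sex. Frozen sections on a Visium array, which reads RNA from small spots of tissue, were cut from male bladders at 22 months (2 sections) and at 14 months (2 sections), with 4 males on each label. Animals were therefore pooled within droplet libraries. Nothing in the labels ties bulk libraries or sections to separate animals, so p-values measure the spread between these libraries, which may be technical.

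Bulk libraries held 23083752 to 68760791 counted reads. Whole-bladder libraries held 13281422 to 40043778 UMIs (unique molecular identifiers, 1 per captured RNA molecule) and kept 948 to 8420 cells, 21174 in all. The nuclei library kept 3375 nuclei with 4921913 UMIs and a median of 1108 per nucleus, and the sections kept 937 to 1317 spots each. The 2 libraries of males carried another barcode length and gene list than the 3 of mixed sex, so sex and chemistry cannot be told apart; they shared 64 barcodes, the most of any pair of the 8 droplet libraries. Smooth muscle-like cells made up 380 of the 5379 cells kept in the detrusor library and 179 of 5158 in the enriched one, and fibroblast-like cells 3087 and 2399.

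To place the members in the genome, the RefSeq promoter window from 250 bases before to 50 bases after each transcription start (GRCm38.p6) was searched on both strands for the classical kappaB consensus, a motif of 10 bases. Windows were listed for 7 of the 10 members; Nfkb1, Relb and Nfkbiz had no entry. A match lay in at least 1 window of 5 of those 7 genes, Nfkb2, Rel, Bcl3, Nfkbia and Tnfaip3, against 2581 of 27025 genes (9.55%) in the whole table. The 7 genes had 10 windows, 3 for Nfkb2 and 2 for Tnfaip3, and 7 of the 10 windows held a match, beside 2779 of 32851 windows (8.46%). The windows of Rela and Tnf and the second window of Tnfaip3 held no match; 1 window per gene is shown. The sequences are printed because these genes are both parts of the pathway and genes that it is known to switch on. They run 5′ to 3′ on the gene's own strand, with matches on either strand in capitals, and overlapping matches run together.
Nfkb2, chr19:46304487-46304786, plus strand: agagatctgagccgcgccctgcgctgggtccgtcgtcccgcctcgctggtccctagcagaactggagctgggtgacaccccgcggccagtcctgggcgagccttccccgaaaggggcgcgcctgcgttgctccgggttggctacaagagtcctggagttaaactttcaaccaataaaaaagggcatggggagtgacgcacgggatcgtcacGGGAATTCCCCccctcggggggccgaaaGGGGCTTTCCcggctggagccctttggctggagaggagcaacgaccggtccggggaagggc
Rel, chr11:23770920-23771219, minus strand: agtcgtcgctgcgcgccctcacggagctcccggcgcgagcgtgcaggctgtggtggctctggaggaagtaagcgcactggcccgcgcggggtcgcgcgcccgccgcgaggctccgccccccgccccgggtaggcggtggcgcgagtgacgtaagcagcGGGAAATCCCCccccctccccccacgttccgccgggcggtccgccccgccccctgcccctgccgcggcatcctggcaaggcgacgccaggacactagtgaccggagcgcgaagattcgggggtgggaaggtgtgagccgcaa
Bcl3, chr7:19822706-19823005, minus strand: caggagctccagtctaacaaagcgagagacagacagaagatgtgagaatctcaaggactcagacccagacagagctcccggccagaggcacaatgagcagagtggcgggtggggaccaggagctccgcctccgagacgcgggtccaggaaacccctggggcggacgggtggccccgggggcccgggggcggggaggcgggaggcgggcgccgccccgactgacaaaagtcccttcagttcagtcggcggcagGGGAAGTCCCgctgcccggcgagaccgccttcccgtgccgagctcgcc
Nfkbia, chr12:55492598-55492897, minus strand: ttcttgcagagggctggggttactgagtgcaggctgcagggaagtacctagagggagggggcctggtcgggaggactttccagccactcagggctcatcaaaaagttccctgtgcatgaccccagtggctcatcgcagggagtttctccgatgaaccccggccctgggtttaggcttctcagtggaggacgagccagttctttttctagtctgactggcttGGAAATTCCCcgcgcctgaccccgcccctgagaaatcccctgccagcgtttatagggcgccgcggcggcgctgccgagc
Tnfaip3, chr10:19015361-19015660, minus strand: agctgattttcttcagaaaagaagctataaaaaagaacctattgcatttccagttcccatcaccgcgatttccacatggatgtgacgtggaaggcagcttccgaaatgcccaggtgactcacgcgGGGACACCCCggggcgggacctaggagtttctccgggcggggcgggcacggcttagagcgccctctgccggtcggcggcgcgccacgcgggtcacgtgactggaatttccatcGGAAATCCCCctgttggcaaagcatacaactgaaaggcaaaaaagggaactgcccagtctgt

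The Nfkbia match began 29 bases before the start site and the nearer Tnfaip3 match 12 bases before it. In Nfkb2 overlapping matches began 39 and 38 bases before the start and a further one 11 bases before it. Its 2 windows not shown share a match that lies 10 bases after the start of one and 225 bases before that of the other, and the former held another match 236 bases before its start. The Rel matches overlapped, beginning 92 and 91 bases before the start. The Bcl3 match began 2 bases after it. A match describes the letters of the window and does not show a bound site. Across the gene bodies, Nfkb1 spans chr3:135584655-135691969, Nfkbiz chr16:55811375-55838954, Tnf chr17:35199367-35202007, Rela chr19:5637442-5648134 and Relb chr7:19606217-19629438. Relb and Bcl3 both lie on chromosome 7.

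The bulk comparison asked which transcripts differ between bladder tissue homogenized whole and the cells obtained by dissociating it. Every member was higher in dissociated cells, and in none did the groups of 3 libraries overlap, as held for 29.9% of all genes tested. Tnf, Tnfaip3, Nfkbiz and Bcl3 each rose more than 10-fold, Rel rose 8.97-fold, and the other subunits and Nfkbia rose 2.13-fold to 4.56-fold. Among the 16538 genes tested, 27.9% were called higher and 31.3% lower (edgeR's quasi-likelihood test, Benjamini-Hochberg adjusted p under 0.05). The median log2 fold change was 2.68 over the members and -0.03 over all genes. Levels below are given in counts-per-million (CPM) scaled by the trimmed mean of M-values (TMM), and errors are SD over n = 3 libraries for levels and SE for log2 fold changes.

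Tnf encodes the cytokine that both activates NF-kappaB and is made in response to it. Intact tissue held 0.423, 0.609 and 0.664 CPM, from 10, 43 and 18 reads, and dissociated cells held 11.6, 12.5 and 8.13 CPM, from 315, 334 and 188 reads. Thus Tnf was near the limit of detection in tissue and well counted in cells. Its log2 fold change was 4.24 ± 0.25 (adjusted p = 1.02e-05).

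Of the subunits, Rel encodes c-Rel, the transactivating subunit best known from lymphoid and myeloid cells. It measured 12.4, 17.6 and 14.1 CPM in tissue and 110, 179 and 103 CPM in dissociated cells, a log2 fold change of 3.16 ± 0.24 (adjusted p = 4.00e-05). The second dissociated library stood highest, and the lowest dissociated value was still several times the highest tissue value. Rela, the main transactivating subunit of the classical pathway, rose from 71.2 ± 5.74 to 164 ± 9.76 CPM. Nfkb1, whose precursor is processed to the usual partner of Rela, rose from 75.4 ± 0.972 to 181 ± 16.7 CPM.

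Nfkb2 and Relb encode the dimer of the alternative pathway. Nfkb2 measured 45.4, 43.9 and 47.2 CPM in tissue and 178, 160 and 144 CPM in dissociated cells, a log2 fold change of 1.84 ± 0.09 (adjusted p = 5.41e-06). Relb showed the smallest rise of the members, from 24.9 ± 1.33 to 52.3 ± 3.80 CPM, a log2 fold change of 1.09 ± 0.08 (adjusted p = 3.35e-05). Tested against a log2 fold change of at least 1, Relb was no longer called (adjusted p = 0.321), while the other 9 members were.

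Among the feedback inhibitors, Nfkbia encodes IkappaB-alpha, the inhibitor that is destroyed on activation and then resynthesized. It measured 50.1, 48.7 and 63.8 CPM in tissue and 284, 241 and 205 CPM in cells, a log2 fold change of 2.19 ± 0.16 (adjusted p = 2.49e-05). Tnfaip3 encodes a ubiquitin-editing enzyme that shuts off signalling upstream of the kinase complex. It measured 12.8, 15.7 and 15.3 CPM in tissue and 246, 285 and 162 CPM in cells, the highest dissociated value again being in the second library. The log2 fold change was 4.00 ± 0.22, or 16.0-fold (adjusted p = 8.51e-06).

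Nfkbiz and Bcl3 encode nuclear members of the IkappaB family that bind NF-kappaB on DNA and can raise as well as lower transcription. Nfkbiz measured 24.4, 25.8 and 20.1 CPM in tissue and 317, 260 and 226 CPM in cells, an 11.6-fold difference (log2 fold change 3.53 ± 0.16, adjusted p = 2.91e-06). Bcl3 measured 9.17, 8.81 and 9.41 CPM in tissue and 107, 94.1 and 105 CPM in cells, an 11.4-fold difference (log2 fold change 3.51 ± 0.09, adjusted p = 5.01e-07). The plot of bulk levels shows every dissociated library above every intact library for each member.

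**Figure D1:**
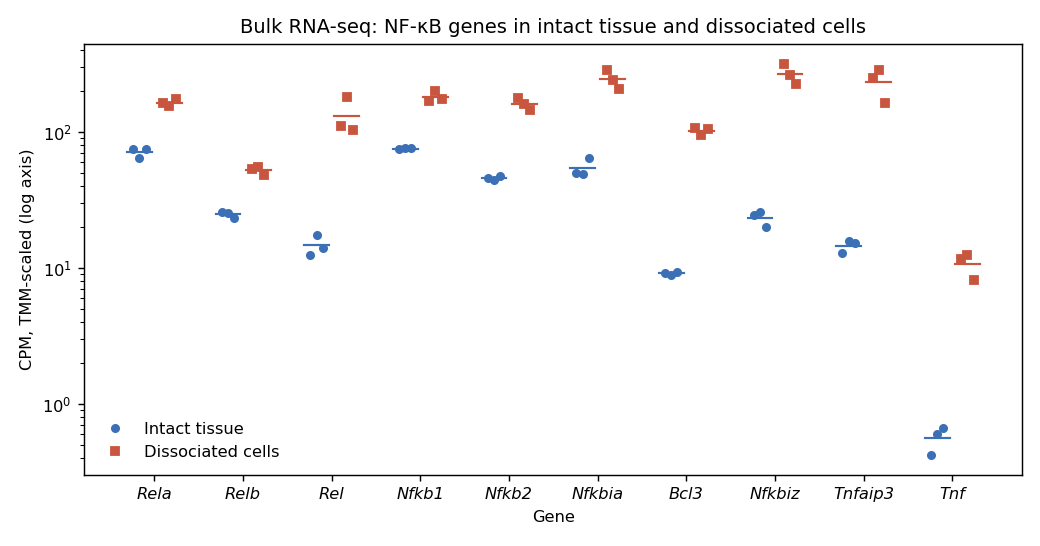
Level of each member in bulk RNA-seq, in TMM-scaled CPM on a log axis, for 3 intact libraries (blue circles) and 3 dissociated libraries (red squares); bars mark the group means. No groups overlap, and the gap is widest for Tnf (0.565 ± 0.127 against 10.7 ± 2.31 CPM) and narrowest for Relb (24.9 ± 1.33 against 52.3 ± 3.80 CPM).

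The cellular make-up of the bulk libraries moved with the same comparison. All 11 smooth muscle markers were lower in dissociated cells, their summed level going from 41604 to 44102 CPM in tissue to 2427 to 3660 CPM in cells, and all 12 fibroblast markers were higher, from 13844 to 16991 CPM to 27337 to 40010 CPM. Of 10 blood endothelial markers 8 were higher, with sums of 483 to 564 CPM against 799 to 999 CPM. Of the immune lists, 11 of 12 macrophage markers were higher (summed 920 to 1004 CPM against 1158 to 1555 CPM). Of 9 dendritic cell markers 6 were higher (53.4 to 65.6 CPM against 130 to 225 CPM), and of 11 T or NK cell markers tested 4 were higher (19.9 to 42.0 CPM against 47.3 to 171 CPM). Neutrophil markers stayed low, with 3 of 4 tested higher, sums of 4.14 to 6.06 CPM against 9.23 to 11.6 CPM, and the defining gene Ly6g at 0 in all libraries. Of 5 mast cell markers tested 0 were higher and 1 lower (40.4 to 74.1 CPM against 18.1 to 33.4 CPM). Only 1 of 7 B cell markers and 1 of 5 plasma cell markers tested were higher. Of 15 urothelial markers 4 were higher and 7 lower (7194 to 8098 CPM against 5304 to 8048.5 CPM). The part of cell composition in the members' rise was not tested. In bulk RNA, fewer cells of a type and less RNA per cell cannot be told apart.

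Other genes of the pathway were counted in lists set by function, also chosen with earlier results of these data known. The counts stand beside the 27.9% of all genes called higher and the 31.3% called lower. Among receptors and ligands, 15 of 24 were higher and 2 lower, with a median log2 fold change of 1.09. The ligand gene Il1b went from 0.651 ± 0.391 to 90.7 ± 10.8 CPM, and Tnfrsf12a, the receptor for the cytokine TWEAK, from 10.2 ± 6.05 to 144 ± 35.2 CPM. Cd40lg, a ligand made by T cells, went from 0.315 ± 0.156 to 3.82 ± 2.23 CPM. Il1b and Cd40lg passed the filter on low counts through the dissociated libraries alone. They are given as descriptions with no test, although the count and median of this list include them. The fallers were Tnfrsf11a, the receptor RANK (36.0 ± 2.12 to 11.6 ± 1.07 CPM), and Tlr3, a receptor for double-stranded RNA (34.4 ± 1.12 to 25.5 ± 1.32 CPM).

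Kinases and adaptors moved in both directions, 14 of 29 higher and 6 lower, with a median log2 fold change of 0.19. The adaptor kinase Ripk1 rose from 49.996 ± 0.935 to 194 ± 18.7 CPM. Birc3 and Traf1, components of the receptor complex that are also known targets of the pathway, rose from 27.7 ± 2.47 to 133 ± 19.0 CPM and from 8.26 ± 1.97 to 32.1 ± 9.75 CPM. By contrast Tab1, a partner of the kinase TAK1, fell from 44.7 ± 0.779 to 15.9 ± 2.58 CPM, and Ikbkg, the regulatory subunit of the kinase complex, fell from 68.0 ± 5.62 to 49.1 ± 3.32 CPM. The receptor adaptor Tradd fell from 18.0 ± 2.18 to 13.5 ± 0.403 CPM.

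Of 20 further inhibitors 9 were higher and 0 lower, with a median of 0.43. Nfkbid, another nuclear IkappaB gene, rose from 2.79 ± 0.381 to 46.9 ± 19.1 CPM, and Il1rn, the interleukin-1 receptor antagonist, from 3.79 ± 0.182 to 21.1 ± 4.28 CPM. Of 30 known target genes 28 could be tested, 21 were higher and 2 lower, with a median of 1.18. The cytokine gene Il6 gave 1, 2 and 2 reads in tissue and 5094, 4761 and 4017 in cells. The chemokine genes Cxcl1 (2, 9 and 4 reads against 2208, 2052 and 834) and Cxcl2 (2, 5 and 3 reads against 936, 1014 and 647) were likewise almost absent from the tissue libraries. Il6, Cxcl1 and Cxcl2 passed the filter on low counts through the dissociated libraries alone. Their values are descriptions with no test, although the count and median of the target genes include them. The targets that fell were Bcl2l1, a survival gene (75.1 ± 9.84 to 50.5 ± 9.14 CPM), and Sod2, the mitochondrial superoxide dismutase (72.0 ± 1.48 to 61.9 ± 3.41 CPM).

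The droplet libraries give the level of each member within a cell class, not the share of its transcripts that the class holds. Over the whole-bladder libraries Nfkbiz had 4894 UMIs in urothelial-like, 1375 in fibroblast-like, 967 in macrophage-like and 904 in dendritic-like cells. For Tnf the UMIs in the same order were 26, 24, 185 and 234. UMIs were summed over the cells of a class in each library and given as CPM of that sum; classes are called X-like because they were named from marker genes after clustering without the members and the pathway lists. The 6 classes with at least 20 cells in 3 or more whole-bladder libraries were urothelial-like, fibroblast-like, blood endothelial-like, T or NK-like, macrophage-like and dendritic-like cells. Some sums rest on few cells, 23 for blood endothelial-like cells at 24 months, 26 and 39 for T or NK-like cells in the first 12-month and the 24-month library, and 23 for macrophage-like cells in the first 12-month library. Between these 6 classes, 8 of 10 members had their highest mean in 1 of the 3 immune classes, beside 35.1% of the 13468 genes averaging 1 CPM or more. With doublets kept, when 8 classes had enough cells, the count was 9 of 10, beside 26.0% of 13711 genes. With doublets removed, the others were Rela, highest in blood endothelial-like cells, and Bcl3, level between blood endothelial-like (63.84 CPM) and dendritic-like cells (63.77 CPM). With doublets kept, Rela was highest in fibroblast-like cells and Bcl3 in dendritic-like cells. B-like cells, found in 2 libraries with 78 cells in all, held 63.8 and 232 CPM of Bcl3. These means are descriptions, and neighbouring classes often did not differ beyond the spread over libraries.

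Tnf was found mainly in the immune classes. Macrophage-like cells held 46.9 to 76.1 CPM in the 5 libraries (mean 56.6 ± 12.2, SD, n = 5), dendritic-like cells 28.4 to 109 CPM in 4 libraries, and T or NK-like cells 11.3 to 55.2 CPM in 4. Fibroblast-like cells ranged from 0 to 2.20 CPM and urothelial-like cells from 0.0956 to 0.551 CPM. No UMI of Tnf was counted in the 374 blood endothelial-like cells of 3 libraries, which allows up to 10.2, 14.4 and 22.1 CPM at 22, 3 and 24 months (3 counts, counting error only), so their place in the order is not set. In order, dendritic-like and macrophage-like cells overlapped with each other and with T or NK-like cells, and all 3 lay above fibroblast-like and urothelial-like cells. The highest macrophage-like value, 76.1 CPM, came from the second 12-month library, whose macrophage-like cluster also carried markers of other immune cells, and the other 4 libraries held 46.9 to 61.1 CPM.

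Among the 6 classes Rel had its highest mean in dendritic-like cells, at 123 to 424 CPM. Macrophage-like cells held 54.4 to 212 CPM (54.4 to 141 CPM without that same library). T or NK-like cells held 23.7 to 73.2 CPM (mean 52.0 ± 20.6, n = 4), overlapping fibroblast-like cells at 4.84 to 36.3 CPM. Urothelial-like cells held 12.1 ± 4.05 CPM (n = 5). The few B-like cells held 82.7 and 142 CPM in 2 whole-bladder libraries and 1180 CPM in the detrusor library, there from 21 cells. Tnfaip3 was highest in T or NK-like cells (95.7 to 395 CPM in 4 libraries), next to macrophage-like (68.4 to 198 CPM) and dendritic-like cells (88.0 to 201 CPM), and these overlapped. It was low in urothelial-like cells (9.91 ± 7.82 CPM, n = 5) and measured 8.60 ± 4.55 CPM in blood endothelial-like cells (n = 3), there from 6 UMIs in all.

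Nfkbia differed from Tnf in being well represented outside immune cells. Blood endothelial-like cells held 1575, 2265 and 2245 CPM in the libraries of 22, 24 and 3 months, the second from 23 cells. These values lay within the range of dendritic-like cells (1506 to 3454 CPM) and reached above that of macrophage-like cells (803 to 2178 CPM). Fibroblast-like cells held 250 to 1119 CPM and urothelial-like cells 83.1 to 180 CPM. Nfkbiz was closely similar between libraries in macrophage-like cells (275 to 328 CPM) and spread widely in fibroblast-like cells (29.0 to 182 CPM). Nfkb1 stood at 140 ± 47.8 CPM in dendritic-like and 101 ± 21.1 CPM in T or NK-like cells (n = 4 each), against 24.5 ± 5.38 CPM in urothelial-like cells. Relb was highest in dendritic-like (68.0 ± 4.38 CPM) and macrophage-like cells (61.4 ± 11.9 CPM), and Rela ranged from 35.5 ± 7.69 CPM in urothelial-like to 75.0 ± 10.8 CPM in blood endothelial-like cells.

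**Figure D2:**
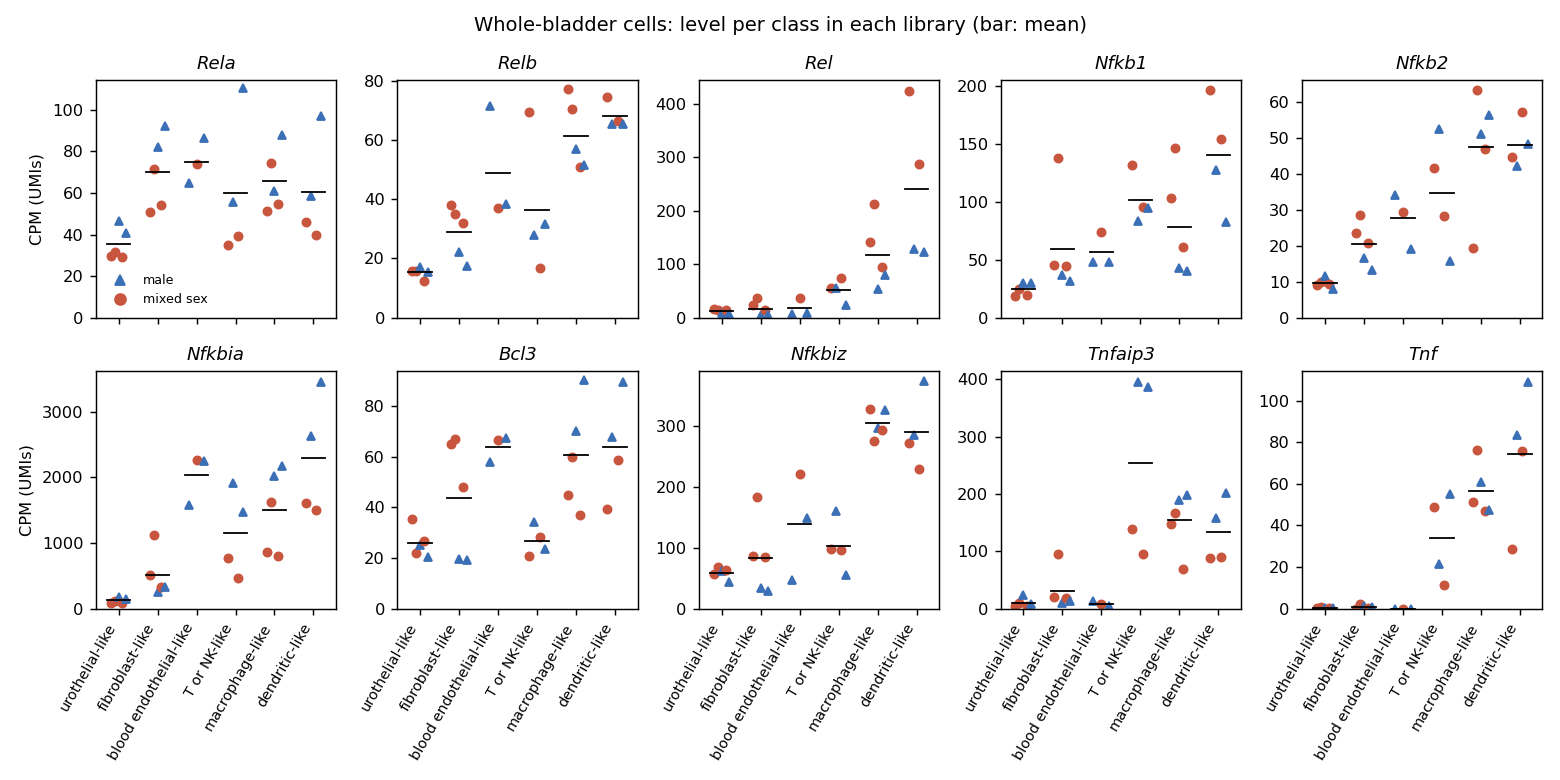
Level of each member in 6 cell classes of the whole-bladder libraries, as CPM of UMIs on linear axes from 0; triangles are the 2 libraries of males, circles the 3 of mixed sex, and bars the mean over libraries. Tnf was not counted in blood endothelial-like cells and lies between 46.9 and 76.1 CPM in macrophage-like cells (46.9 to 61.1 CPM without the second 12-month library), while Nfkbia is also high in blood endothelial-like cells (1575 to 2265 CPM).

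One library stood apart in its fibroblasts. In the second 12-month library the 143 fibroblast-like cells held 1119 CPM of Nfkbia, 137 of Nfkb1 and 94.5 of Tnfaip3, while the other 4 libraries held 250 to 508, 31.7 to 45.3 and 9.40 to 20.1 CPM. The summed macrophage markers in those same cells were the lowest of the 5 libraries, 40.8 CPM against 81.7 to 294 CPM. They were also lowest in the macrophage-like cells of this library, 13518 CPM against 39461 to 56804 CPM. The part of RNA from other cells in these fibroblast-like levels was not tested. This library was labelled with the same age and sexes as the first 12-month library.

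Fibroblast-like cells, the main stromal class, were compared with urothelial-like cells, the lining epithelium, in the 5 libraries with the library as a block. Of 9 members tested, 4 were higher in fibroblast-like cells and 0 lower, where 32.3% of 11824 genes were called higher and 35.1% lower; Tnf was too low to test. On the TMM scale Nfkbia was 206, 257, 305, 471 and 1079 CPM in fibroblast-like cells and 110 to 174 CPM in urothelial-like cells. Its log2 fold change was 1.56 ± 0.42 (edgeR adjusted p = 0.0174). Rela was higher too, at 61.2 ± 11.7 against 39.9 ± 3.31 CPM (log2 fold change 0.66 ± 0.12, adjusted p = 0.00131).

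The subunits of the alternative pathway differed too, Nfkb2 by a log2 fold change of 0.75 ± 0.16 (edgeR adjusted p = 0.00362) and Relb by 0.58 ± 0.18 (adjusted p = 0.0186), though their values overlapped between classes. The Relb call was lost without the first 12-month library (adjusted p = 0.0636) or the 24-month library (0.0781), and that of Nfkbia with no filter on low counts (0.0508). Nfkb1 (0.75 ± 0.33), Tnfaip3 (1.14 ± 0.69), Bcl3 (0.27 ± 0.26), Nfkbiz (-0.11 ± 0.33) and Rel (-0.18 ± 0.28) were not called. DESeq2 called 6 of the 9 members among 7880 of 11824 genes, adding Nfkb1 (DESeq2 adjusted p = 0.0341) and Tnfaip3 (0.0458). Within the 3 libraries of mixed sex alone 6 members were called among 8515 of 12772 genes, adding Tnfaip3 (2.15, adjusted p = 2.12e-05) and Bcl3 (0.63, adjusted p = 0.00447); the 2 libraries of males were not fitted alone. In those of males Bcl3 ran the other way, 16.1 CPM in fibroblast-like against 24.3 CPM in urothelial-like cells at 22 months and 14.98 against 17.6 CPM at 3 months. Tnfaip3 was also called without the 22-month library (1.85, adjusted p = 0.00258), where urothelial-like cells held 22.2 CPM against 7.75 CPM in fibroblast-like cells. Of the wider pathway, 10 of 15 receptors and ligands were higher and 2 lower, and 15 of 24 targets higher and 4 lower. Kinases and adaptors split into 9 higher and 10 lower of 29, and further inhibitors into 6 higher and 5 lower of 17.

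Macrophage-like cells were then set against fibroblast-like cells of the same libraries, with members' levels on the TMM scale unless stated. Rel, Tnfaip3 and Tnf passed the filter on low counts through the macrophage-like sums alone, so their values are given as a description with no test. Of the other 7 members 5 were higher in macrophage-like cells and 0 lower, against 22.4% of 8089 genes called higher and 23.7% lower. Tnf measured 50.6, 52.1, 57.5, 78.7 and 85.1 CPM in macrophage-like cells and 0 to 2.12 CPM in fibroblast-like cells, there from 0 to 15 UMIs a library. Rel measured 70.1 to 237 CPM against 3.81 to 35.0 CPM. Relb and Nfkbiz were higher, at 69.4 ± 9.63 against 26.2 ± 9.68 CPM and 346 ± 38.4 against 77.0 ± 61.7 CPM.

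Nfkbia (log2 fold change 2.15 ± 0.51, edgeR adjusted p = 0.00926), Nfkb2 (1.91 ± 0.31, 4.00e-04) and Nfkb1 (0.91 ± 0.20, 0.00262) were higher with overlapping values. Rela (0.43 ± 0.17, adjusted p = 0.0656) and Bcl3 (1.31 ± 0.56, 0.0908) were not called. Nfkbia lost its call with no filter on low counts (adjusted p = 0.0910). In the 3 libraries of mixed sex alone, the same 5 members were called, among 2702 of 6934 genes, and Nfkbia differed by 1.202 ± 0.26 (edgeR adjusted p = 0.00187). In the 22-month and 3-month libraries of males Nfkbia was 2603 and 2628 CPM in macrophage-like against 207 and 257 CPM in fibroblast-like cells. In the first and second 12-month and the 24-month libraries it was 855, 1808 and 893 CPM against 471, 1079.9 and 305 CPM. Tnfaip3 was 245 and 239 CPM against 7.76 and 10.3 CPM in the libraries of males, and 146, 186 and 76.0 CPM against 18.6, 91.2 and 16.8 CPM in those of mixed sex. The gap was thus wider in both libraries of males for both genes, a difference that was not tested. The macrophage-like cluster of the second 12-month library was led by Cd52, Cd74, Jchain and H2-Aa, and its macrophage markers summed to 13518 CPM against 39461 to 56804 CPM in the other 4. Its dendritic markers summed to 1356 CPM against 215 to 515 CPM, and its T or NK markers to 684 CPM against 32.2 to 121 CPM. Without this library the same 5 members were called, and before TMM scaling macrophage-like cells held 46.9 to 61.1 CPM of Tnf and 54.4 to 141 CPM of Rel. Of the lists, 11 of 18 further inhibitors were higher and 2 lower, 11 of 22 kinases and adaptors higher and 1 lower, 8 of 23 targets higher and 1 lower, and 5 of 12 receptors and ligands higher and 3 lower. A size-factor scaling other than TMM moved the median of all genes to -0.14 and the share of calls that were higher from 48.6% to 41.6%, with the same 5 members called.

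Barcode chemistry and sex ran alongside some levels. In fibroblast-like cells Rel was 4.84 and 5.01 CPM in the libraries of males and 13.4 to 36.3 CPM in those of mixed sex, and Bcl3 was 19.0 and 19.5 against 47.9 to 67.0 CPM. In macrophage-like cells Nfkbia was 2020 and 2178 CPM in the libraries of males and 803 to 1617 CPM in the others. With 2 and 3 libraries and ages that differ as well, these differences were not tested.

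The 2 detrusor libraries, 1 library each, gave levels of their own with exact Poisson 95% intervals that cover counting error only. Tnf in macrophage-like cells was 120 CPM (107 to 133) in the detrusor library and 415 CPM (383 to 449) in the detrusor-enriched library. In dendritic-like cells it was 304 CPM (265 to 346) and 337 CPM (297 to 380). Nfkbiz in macrophage-like cells was 1069 and 1103 CPM, and Rel in dendritic-like cells 1089 and 650.5 CPM. Smooth muscle-like cells, which are not among the 6 classes compared above, held 242 CPM of Nfkbia in the detrusor library (228 to 257) and 240 CPM in the enriched one (215 to 267). They had 1 and 0 UMIs of Tnf, the 0 allowing up to 2.18 CPM. Blood endothelial-like cells were again high in Nfkbia, at 2487 and 2563 CPM. Their Tnfaip3 was 23.8 CPM (18.5 to 30.04) and 88.3 CPM (76.5 to 101), above the whole-bladder values, and their Tnf 3.74 CPM (1.87 to 6.68) and 0.883 CPM (0.107 to 3.19). Depth, age and sex differ from those of the whole-bladder libraries, and no test was made.

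Nuclei hold transcripts that have not yet been exported to the cytoplasm. The nuclei library was compared with the 5 whole-bladder cell libraries within the 2 most common classes of those cell libraries. The largest class of the nuclei library, 1377 smooth muscle-like nuclei (40.8%), was not compared. In whole-bladder cells that class was named only at 24 months, with 16 cells. With 1 nuclei library, the spread behind every p-value on nuclei comes from the cell libraries alone, and the nuclei are assumed to vary like them. The share of all genes below all 5 cell libraries is not given here, so that position alone sets no member apart. The median log2 fold change of all genes was -0.319 in fibroblast-like and -0.0354 in urothelial-like nuclei. Levels in this comparison are on the TMM scale unless stated. In urothelial-like nuclei Nfkbia was 33.8 CPM and Bcl3 3.49 CPM, against 141 ± 21.3 and 31.8 ± 12.8 CPM (SD, n = 5) in cells. Both lay below every cell library (log2 fold change -2.02 ± 0.31, edgeR adjusted p = 0.00396, and -3.15 ± 0.70, adjusted p = 0.0142). Nfkb1 went the other way, 53.6 CPM in nuclei against 28.4 ± 3.75 CPM in cells (0.96 ± 0.24, adjusted p = 0.0202). Thus 1 of 9 members tested was higher and 2 lower, where 16.0% of 13323 genes were called higher and 19.1% lower. The Nfkb1 call was lost without the first 12-month library (adjusted p = 0.0575) or the 24-month library (0.0521).

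Of the others in urothelial-like nuclei, Nfkb2 (-1.36 ± 0.46, edgeR adjusted p = 0.0583), Rela (-0.69 ± 0.24, 0.0608), Tnfaip3 (-2.99 ± 1.13, 0.0796) and Nfkbiz (-1.24 ± 0.54, 0.116) had lower values in nuclei than in all 5 cell libraries without passing the threshold. Rel (0.33 ± 0.70) and Relb (-0.02 ± 0.35) had values within the range of the cells. Tnfaip3 rested on 6 UMIs and Tnf on 0 among 1248 nuclei, which allows up to 1.29 CPM of Tnf before TMM scaling.

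In fibroblast-like nuclei Tnfaip3 passed the filter on low counts through the cells alone, so it is given as a description with no test. Of the other members tested 1 was lower and 0 higher, against 16.2% of 12479 genes lower and 8.47% higher. Rela was 27.5 CPM in nuclei and 79.8 ± 14.3 CPM in cells (-1.40 ± 0.40, edgeR adjusted p = 0.0391). That call was lost with other size factors (adjusted p = 0.0714), with DESeq2 (0.0997) and without any of 4 of the 5 libraries, the second 12-month library being the exception. Nfkbia was 45.9 CPM in nuclei against 606 ± 468 CPM in cells, below every cell library but not called (-3.61 ± 1.16, adjusted p = 0.0570); without the second 12-month library it was called (-3.00, adjusted p = 0.0219). Bcl3 (-2.58 ± 1.21), Nfkbiz (-2.21 ± 1.34), Nfkb2 (-0.87 ± 0.69) and Relb (-0.86 ± 0.69) likewise had values below all 5 cell libraries and were not called. Rel (-1.11 ± 1.60) and Nfkb1 (0.40 ± 0.88) had values within the range of the cells. Tnfaip3 measured 1.31 CPM in nuclei, from 1 UMI, against 37.8 ± 45.8 CPM in cells. Tnf rested on 0 UMIs among the 409 nuclei.

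**Figure D3:**
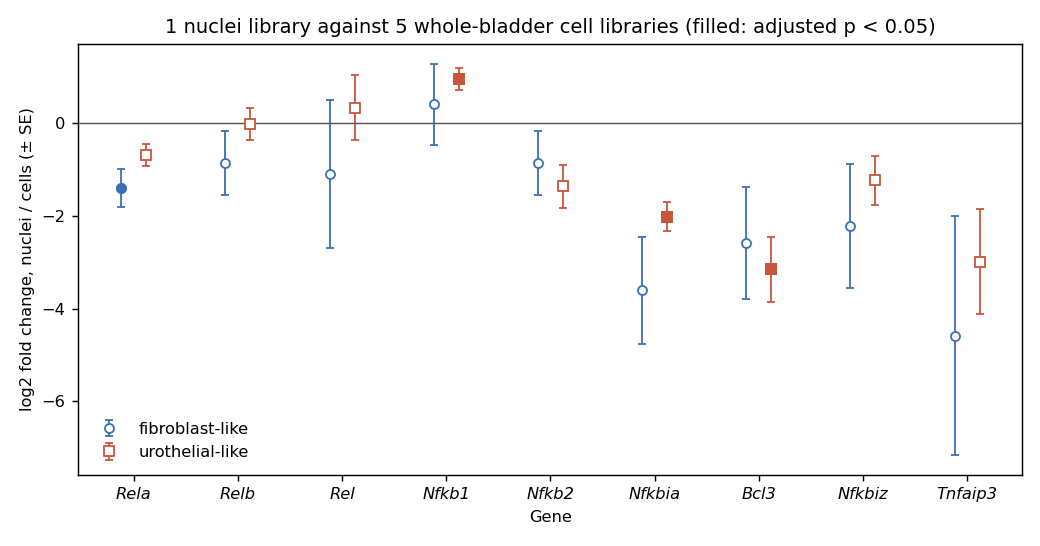
Log2 fold change of 9 members between the nuclei library and the 5 whole-bladder cell libraries, ± SE, for fibroblast-like (blue circles) and urothelial-like cells (red squares); filled points have adjusted p under 0.05. Filled points are Rela (-1.40) in fibroblast-like, and Nfkb1 (0.96), Nfkbia (-2.02) and Bcl3 (-3.15) in urothelial-like cells. The fibroblast-like point of Tnfaip3 rests on 1 nuclear UMI. It is a description only, since Tnfaip3 passed the filter there through the cells alone.

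The test of whether the nuclear difference itself differed between the 2 classes called 0 members with edgeR, with 0 at an unadjusted p under 0.05 and 0 with DESeq2, where 0.531% of 14116 genes were called. For Nfkbia the difference was -1.35 ± 0.97 and for Rel -1.33 ± 0.79 on the log2 scale. A further fit used the 12-month cell libraries alone, which match the nuclei in age and sexes. In fibroblast-like nuclei the median log2 fold change was then -1.85 over the 9 members fitted and -0.043 over all genes. In urothelial-like nuclei the medians were -1.52 and -0.0037. The difference between the classes then called 2 members, Nfkbia (-2.34, edgeR adjusted p = 0.00804) and Rel (-2.05, 0.0444), among 761 of 12605 genes. Of the 2 cell libraries in that fit, 1 was the second 12-month library, which stood apart in its fibroblasts (1119 CPM of Nfkbia and 36.3 CPM of Rel before TMM scaling); 0 members were called in any other setting run. Of the lists, targets split into 0 higher and 5 lower of 27 in fibroblast-like and 1 higher and 4 lower of 28 in urothelial-like nuclei. Receptors and ligands split into 0 and 5 of 16 and 0 and 3 of 17, kinases and adaptors into 2 and 3 of 29 and 6 and 3 of 29, and further inhibitors into 2 and 4 of 19 and 5 and 2 of 20. Smooth muscle markers were higher in the nuclei of both classes, 7 of 11 in fibroblast-like (6384 CPM against 482 to 2688 CPM) and 11 of 11 in urothelial-like (2661 CPM against 26.0 to 152 CPM). The classes' own markers were lower, 4 of 12 fibroblast markers in fibroblast-like nuclei (11109 CPM against 39849 to 70497 CPM, median log2 fold change -1.78) and 7 of 15 urothelial markers in urothelial-like nuclei (5267 CPM against 19145 to 25768 CPM, median -1.73). The part of these markers' cell types in the results on nuclei was not tested.

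Summed over whole libraries, with no selection of classes, Nfkbia was 170 to 538 CPM in whole-bladder cells, 655 and 621 CPM in the detrusor and detrusor-enriched cells, 68.9 CPM in nuclei and 52.4 to 62.1 CPM in sections. Tnfaip3 was 9.05 to 35.9 CPM in whole-bladder cells, 37.3 and 54.2 CPM in the detrusor and detrusor-enriched cells, 4.11 CPM in nuclei and 4.01 to 7.15 CPM in sections. Rel was 15.2 to 27.4 CPM in whole-bladder cells, 57.3 and 48.3 CPM in the detrusor and detrusor-enriched cells, 29.4 CPM in nuclei and 5.54 to 6.35 CPM in sections. Nfkb1 was highest in the nuclei, at 91.9 CPM, against 26.0 to 41.8 CPM in whole-bladder cells, 59.2 and 75.4 CPM in the detrusor and detrusor-enriched cells and 27.1 to 34.7 CPM in sections. Rela ran the other way, with 86.7 to 106 CPM in sections and 31.6 to 72.9 CPM in whole-bladder cells, and so did Nfkb2, with 23.8 to 34.7 CPM in sections and 12.1 to 19.7 CPM in cells. These assays differ in chemistry and in the cells they sample, and no test was made between them.

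Sections of 22 and 14 months gave no member called, and no gene of 14995 tested (0%) with edgeR, although 2488 genes had an unadjusted p under 0.05 and DESeq2 called 426 genes, 0 of them members. Fitted log2 fold changes of the 9 members tested ran from -0.56 for Nfkbiz to -0.00 for Nfkb1, and 0 had an unadjusted p under 0.05. Members' levels here are on the TMM scale. Nfkbia was 55.5 and 59.8 CPM at 14 months and 53.8 and 55.0 CPM at 22 months. For Nfkbiz, 1 section of 14 months stood above the rest, at 29.99 CPM against 12.5, 16.4 and 12.2 CPM. Tnf had 1 and 2 UMIs in the sections of 14 months and 12 and 19 UMIs in those of 22 months, too few to pass the filter. With no filter Tnf was the 1 member of 10 with an unadjusted p under 0.05 (log2 fold change 3.13 ± 0.83, edgeR adjusted p = 0.104). Without the second section of 14 months 3 members were under it, Tnf (3.61, adjusted p = 0.471), Nfkbiz (-1.06, 0.253) and Tnfaip3 (-0.79, 0.442), and none was called. T or NK markers summed to 16.9 to 19.8 CPM at 14 months and 28.4 to 65.8 CPM at 22 months (0 of 10 tested called), and plasma cell markers to 151 to 281 CPM and 652 to 3653 CPM (0 of 7 called). Their part in the Tnf counts was not tested.

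Within sections, spots were grouped into regions by marker genes, 2646 muscle-rich, 549 urothelium-rich and 753 fibroblast-rich spots, each spot holding several cells. Against muscle-rich spots of the same section, urothelium-rich spots had 2 of 9 members higher and 4 lower, where 38.9% of 13435 genes were called higher and 38.0% lower. Nfkb2 measured 45.9, 41.8, 38.4 and 51.6 CPM in muscle-rich spots and 17.7, 12.6, 11.9 and 12.9 CPM in urothelium-rich spots (sections 1 and 2 of 14 months, then 1 and 2 of 22 months). The log2 fold change was -1.68 ± 0.11 (edgeR adjusted p = 1.08e-08), and members' levels in these 2 regions are on the TMM scale. Its partner Relb measured 33.0, 33.8, 26.3 and 39.4 CPM against 16.9, 14.1, 12.0 and 14.5 CPM (-1.19 ± 0.10, adjusted p = 2.50e-07). Both genes of the alternative dimer were lower in the urothelium-rich spots of all 4 sections. Since 38.0% of all genes were called lower there, these calls do not set the 2 genes apart.

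Rel went the other way, at 4.91, 3.08, 2.45 and 3.14 CPM in muscle-rich and 8.25, 7.58, 7.71 and 7.16 CPM in urothelium-rich spots (1.21 ± 0.20, edgeR adjusted p = 1.04e-04). Nfkbiz was 15.6, 7.50, 7.35 and 5.40 CPM against 42.7, 17.8, 20.8 and 14.3 CPM. It was higher in urothelium-rich spots in every section, although values overlapped across sections (1.40 ± 0.11, adjusted p = 1.39e-07). Rela (-0.48 ± 0.10, adjusted p = 8.57e-04) and Tnfaip3 (-0.72 ± 0.23, 0.0128) were lower, the latter not without the first section of 22 months (0.109). Nfkb1 (0.15 ± 0.10), Nfkbia (0.06 ± 0.09) and Bcl3 (-0.05 ± 0.17) were not called.

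**Figure D4:**
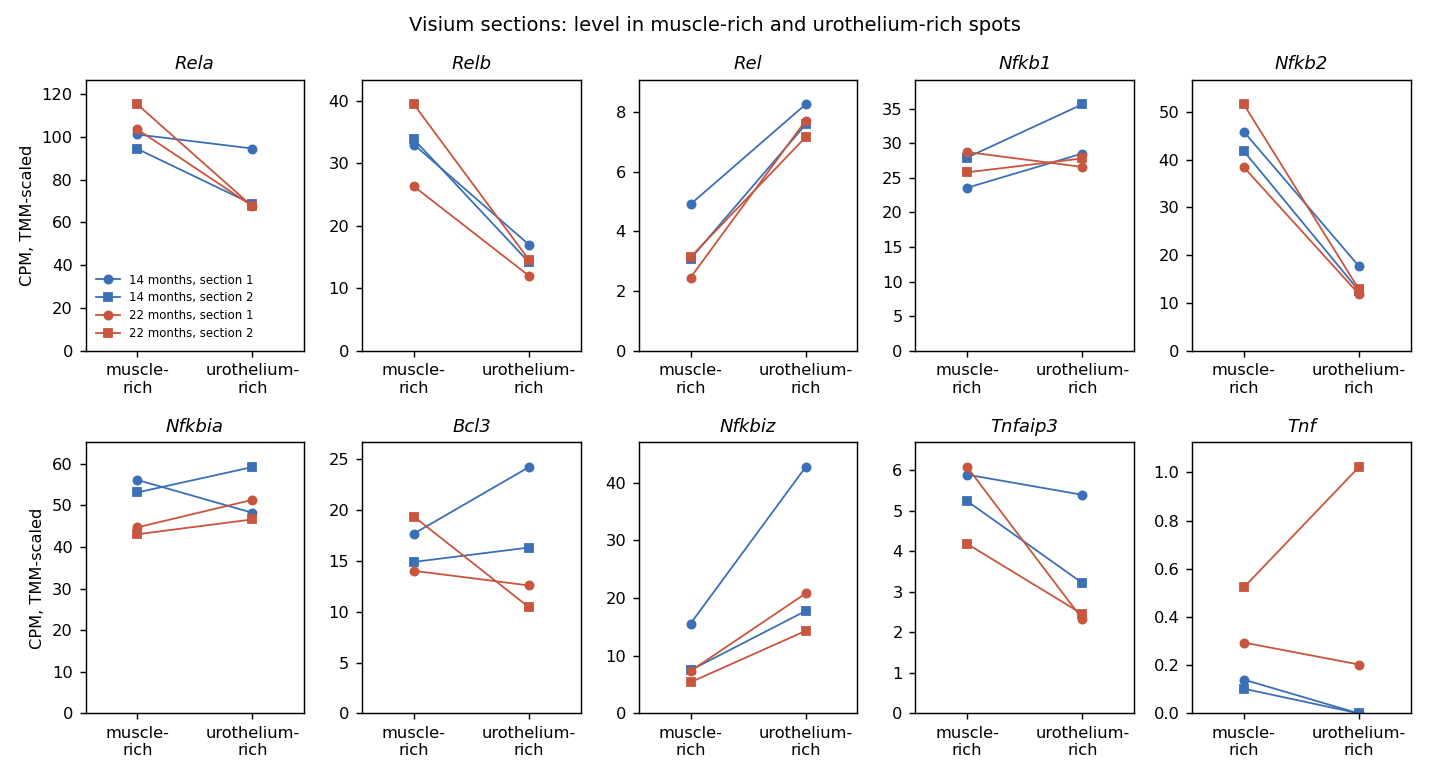
Level of each member, in TMM-scaled CPM of UMIs on linear axes from 0, in muscle-rich and urothelium-rich spots; each line joins the values of 1 section (blue 14 months, red 22 months). All 4 lines fall for Nfkb2 (44.4 ± 5.66 to 13.8 ± 2.68 CPM) and Relb, and all 4 rise for Rel (3.39 ± 1.06 to 7.67 ± 0.453 CPM) and Nfkbiz.

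Depth and markers of other cell types moved with these regions. Median UMIs per spot were 12430 to 14440 in muscle-rich and 49750 to 71580 in urothelium-rich spots, and all 12 macrophage markers were lower in urothelium-rich spots, with sums of 215 to 336 CPM against 1994 to 3210 CPM. So were all 12 fibroblast markers (2151 to 2497 CPM against 6376 to 10893 CPM), all 10 blood endothelial markers (105 to 174 CPM against 343 to 398 CPM) and 6 of 7 lymphatic endothelial markers, all 6 tested (36.6 to 55.8 CPM against 271 to 488 CPM). The part of depth and of these cell types in the members' values was not tested. Of the lists, 12 of 16 receptors and ligands were lower and 1 higher, 15 of 22 targets lower and 4 higher, 7 of 29 kinases and adaptors lower and 17 higher, and 6 of 18 further inhibitors lower and 7 higher. Fibroblast-rich spots, which were not tested, held 69.7 to 81.5 CPM of Nfkbia before TMM scaling, above the 40.0 to 55.1 CPM of muscle-rich and the 45.4 to 64.1 CPM of urothelium-rich spots.

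Likeness between genes was described over 51 sums of a class in a cell or nuclei library with at least 50 cells, by Pearson's r of log2(CPM + 1) among 9619 genes. These sums share libraries, depth and chemistry, so r carries no test. Between members r was highest for Tnf with Rel (0.815) and Tnf with Tnfaip3 (0.778), and lowest for Bcl3 with Nfkb1 (0.0333). Among all genes, Tnf was most like Rasgrp4, Lrrc25 and Itgam (0.93 for the first), Rel most like Stap1, Ciita and Aim2 (0.86), and Tnfaip3 most like Ccl4, Ccl3 and Bcl2a1b (0.82). Nfkbia was most like Dusp2, Srgn and Rap1b (0.85), Nfkbiz most like Mcl1, Zc3h12a and Kctd12 (0.76), and Bcl3 most like Litaf, Bcl10 and Ier5 (0.82). Relb was closest to Pip4k2a, Mcl1 and Plekho1 (0.84), Nfkb2 to Rilpl2, Vrk1 and Litaf (0.83), Nfkb1 to Map3k14, Uvrag and Pip4k2a (0.77) and Rela to Tsc22d3, Lmbrd1 and Tmem50a (0.74).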

How the data were processed

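Bulk reads, whole-bladder, detrusor and nuclei droplets and Visium sections were deposited as whole-number counts per gene. Per the submitters' processing notes, which name bcl2fastq, Cell Ranger, Space Ranger, Subread and featureCounts with the mm10 genome, the authors aligned and counted the reads; versions and parameters are not given in the sources used here. No bulk column lacked a matching sample (0 unmatched). Mitochondrial genes were left out of the droplet and section sums, since both libraries of males list them at 0, and only genes shared by the tables compared were used.

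A barcode was kept if it had 500 UMIs or more, of which mitochondrial genes took no more than 20%. Likely doublets, scored against simulated ones (2 per cell), were removed at a rate of 0.8% for each 1000 barcodes. Each library was clustered (Leiden, resolution 1, 30 components, 2000 variable genes) without the members and pathway lists, and clusters took a class from marker lists; the naming rule was settled after the clusters were seen. Spots had no doublet step; a region needed a marker sum of 1.25 times the section mean.

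UMIs were summed per library and class, using classes of at least 50 cells for tests and likeness (20 for the macrophage test) and of at least 20 cells for levels. edgeR 4.0.16 quasi-likelihood tests (R 4.3.3; robust, TMM, filterByExpr, two-sided, Benjamini-Hochberg over all genes) were the main tests, with DESeq2 1.42.0, other scaling, no filter, doublets kept, resolution 2, at least 1000 UMIs and left-out libraries as alternatives. The single nuclei library, with no replicate, was assumed to vary like the cell libraries. The fits were tested on simulated data. All members are named throughout; from each pathway list, up to 3 genes with the largest rise and 3 with the largest fall in bulk are eligible if they pass the test, do not overlap between groups and average 1 CPM or more. The members and lists were chosen with earlier results of these data known.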

Additional observations from a re-analysis of the deposited data

How the results depend on the processing

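The direction of a member's difference and its side of the threshold held in 698 of 759 alternative values, 14 lost and 24 gained a call and 23 reversed sign. The cause was not tested. These values include Rel, Tnfaip3 and Tnf in the macrophage comparison and Tnfaip3 in fibroblast-like nuclei, which are given above as descriptions with no test. With a log2 fold change of at least 1, bulk calls went from 9798 to 1789 genes and from 10 to 9 members. With the replicate number as a block, 10011 bulk genes and 10 members were called. Same-numbered intact and dissociated libraries correlated in their deviations at 0.203, 0.344 and -0.0702, and the other pairs at -0.437 to 0.277. With 3 libraries in each group, these values cannot decide whether the numbers pair them. With library size alone, 38.3% of bulk calls were higher rather than 47.2%. In fibroblast-like nuclei 1 member was called among 3080 genes, 0 (3025 genes) with other size factors, 2 (2968) with DESeq2, 5 (4265) with the 12-month cell libraries only and 0 to 2 (2182 to 3235) without single libraries; there 34.3% of called genes were higher, and 46.5% with other size factors. In urothelial-like nuclei 3 were called among 4687 genes, 6 (5121) with DESeq2, 7 (6674) with the 12-month libraries and 2 to 6 (3463 to 4927) without single libraries. The difference between classes in the nuclear effect called 75 genes, and 6 with other size factors, 226 with DESeq2, 113 without a filter, 761 with the 12-month libraries, 10 with doublets kept and 1 to 155 without single libraries; 2 members were called with the 12-month libraries, Nfkbia (-2.34) and Rel (-2.05), and 0 otherwise. Section age called 0 genes, 426 with DESeq2, 287 without a filter and 0 to 300 without single sections. Signs reversed only in uncalled values. Between fibroblast-like and urothelial-like cells Rel (-0.18) ran from -0.50 to 0.027 without single libraries, positive without the 22-month library, and was 0.091 in mixed-sex libraries; Nfkbiz (-0.11) ran from -0.44 to 0.16, positive without the 22-month or the 3-month library (0.021), and was 0.38 in mixed-sex libraries. In nuclei, with the 12-month libraries, Nfkb1 was -0.048 in fibroblast-like and Rel -0.13 in urothelial-like cells, and Relb in urothelial-like cells ran from -0.11 to 0.048 without single libraries, positive without the first or the second 12-month library, and was 0.0065 with doublets kept. Tnf in the difference between classes was 1.84 with DESeq2. Without single sections, age differences ran from -0.15 to 0.16 for Nfkb1, -0.39 to 0.059 for Nfkb2, -0.12 to 0.068 for Rel, -0.24 to 0.082 for Rela, -0.36 to 0.12 for Relb, -1.06 to 0.19 for Nfkbiz and -0.79 to 0.030 for Tnfaip3. Between regions Bcl3 ran from -0.24 to 0.17, positive without the second section of 22 months, and was 0.048 at resolution 2. In simulated data 9.47% (fibroblast-like) and 17.9% (urothelial-like) of genes changed 4-fold were recovered with 1 nuclei library.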
